A study of Danio rerio with 85 samples.

Results

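Whole zebrafish embryos at 3 days post fertilization (dpf) were compared between 8 wildtype and 7 *rnf2* mutant RNA-seq libraries, which are 15 of the 85 samples of the series. All 8 wildtype libraries (replicates 1 to 5 and 11 to 13) are labelled as strain TLF, and all 7 mutant libraries (replicates 1 to 3 and 5 to 8) as genotype *rnf2*-/- in a TU/TLF mixed background. Each library was made from pooled embryos. The mutants were picked by their phenotype from crosses of heterozygous carriers and the controls were a wildtype strain. The methods describe that strain as sharing the genetic background of the mutants, while the labels name the strains differently, and where the strains differ genotype and strain cannot be told apart in these libraries. Identifiers were tested where their normalized counts averaged 5 or more over the 15 libraries, which left 22685 genes of 30029, and these were read through lists of marker genes for organs, gene families and RNA classes.

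Rnf2, also named Ring1b, is the catalytic subunit of Polycomb repressive complex 1 (PRC1), which places ubiquitin on histone H2A. Polycomb repressive complex 2 (PRC2) methylates histone H3 at lysine 27, and the domains of chromatin that carry this mark are known for holding developmental regulators such as the *hox* genes silent outside the tissue and time of their use. In zebrafish, a homozygous *rnf2* mutant embryo is known to form its organs incompletely, with missing cartilage and pectoral fins and a thin heart tube.

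A value below is a normalized count, that is the number of reads of a gene in a library divided by the size factor of that library. Where 3 values are given for a group they are those of its lowest, its median and its highest library. A fold change is on the log2(normalized count + 1) scale, mutant over wildtype, with its standard error (SE), and understates the change of genes with few reads. A gene "rose" or "fell" where limma gave a p of at most 0.05 after Benjamini-Hochberg adjustment over all genes tested. A gene "passed the 2-fold test" where limma's treat, which tests against a log2 fold change of 1, gave an adjusted p of at most 0.1.

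The targeted gene was checked first. The *rnf2* transcript was at 497, 594 and 699 normalized counts in wildtype libraries and at 116, 142 and 153 in mutants. No mutant library came near the lowest wildtype one, which matched the labels of all 15. Libraries held between 4711185 and 12585927 reads, with medians of 9762416 in wildtypes and 7456006 in mutants, and the 10 most abundant genes took between 14.4% and 22.9% of the counts of a library. Wildtype replicate 11 stood apart by its small non-coding RNAs, which is described with those genes. Nothing in the labels says whether pools came from separate crosses, so that a p-value measures the spread between these libraries.

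The difference between the genotypes was broad and mostly small. By the plain test 10854 of 22685 genes differed (47.8%), of which 5446 rose (24%) and 5408 fell (23.8%). The 2-fold test was passed by 434 genes (1.91%), 228 upwards (1.01%) and 206 downwards (0.908%). Among the genes that rose, 44.2% rose by less than 1.5-fold, 29.9% by 1.5-fold to 2-fold and 25.9% by 2-fold or more. Falls were smaller, with 58.5% under 1.5-fold and 14.1% at 2-fold or more. All 7 mutant libraries lay above all 8 wildtype libraries in 1584 genes (6.98%), and below them in 2167 genes (9.55%).

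The balance of rises and falls moved with the level of a gene. Among 3788 genes with a mean of 5 to 20 normalized counts, 30.8% rose and 6.55% fell. Among 2752 genes with a mean of 500 or more, 15.3% rose and 45.5% fell. The median log2 fold change went from 0.45 in the lowest class through 0.12 (means of 20 to 100) and -0.05 (100 to 500) to -0.17 in the highest. Fold changes are given as fitted, without subtracting a median. Their median over all genes tested was 0.03, which became 0.14 when libraries were scaled to their total counts. Under that scaling 7082 genes rose and 3742 fell, so that rises made up 65.4% of the calls in place of 50.2%.

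Mutant libraries also held more genes with any read. Wildtype libraries had 24694, 26105 and 26914 genes above 0, and mutant libraries 27087, 27482 and 27824. The lowest mutant library exceeded the highest wildtype library, although wildtypes were on the whole sequenced more deeply. After every library was thinned at random to 4711185 reads, the depth of the smallest, the counts were 24490, 24917 and 25407 genes in wildtypes and 26216, 26584 and 26677 in mutants. The means differed by 1549.9 genes (24935.6 ± 314.9 against 26485.6 ± 184.1, SD, n = 8 and 7, p = 0.00016 by a two-sided exact permutation test, which is the minimum that 6435 splits allow). Most of that difference, 1353.0 genes, came from identifiers below the minimum mean for testing, of which a thinned library held between 2165 and 2915 in wildtypes and between 3596 and 4085 in mutants.

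**Figure D1:**
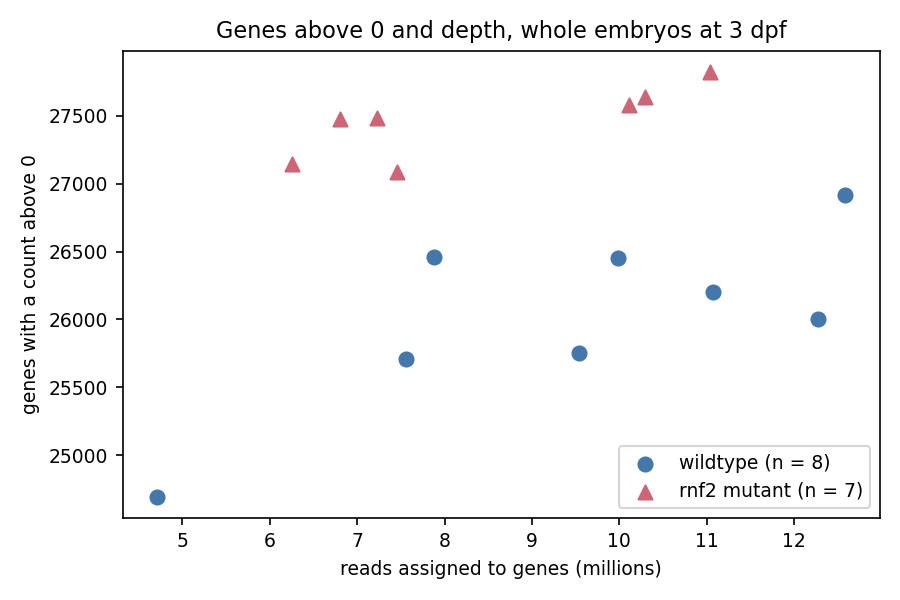
Number of genes with a count above 0 (vertical axis) against the number of reads assigned to genes (horizontal axis), 1 point per library, circles for 8 wildtype and triangles for 7 *rnf2* mutant libraries. The mutant points lie between 27087 and 27824 genes at any depth, above all wildtype points, which reach 26914.

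Organs did not take equal shares of the rises and falls. Beside a background of 24% of genes rising and 23.8% falling, the lists of genes of proliferation, oxidative phosphorylation, heart muscle, cartilage, bone, liver, neurons and lens held more falls than rises, and the lists of *hox* genes, interferon response, myeloid cells, red blood cells, epidermis and exocrine pancreas more rises than falls. The background itself moved with level: 45.5% of genes with a mean of 500 or more fell, and 30.8% of genes at 5 to 20 rose. The shares of falls of liver (48.15%), neurons (47.5%) and lens (45.24%) were near the first value. Apart from ribosomal protein genes, the lists were not set beside genes of their level. In pooled whole embryos, fewer cells of a type and less RNA per cell cannot be told apart, and this holds for every list below.

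**Figure D2:**
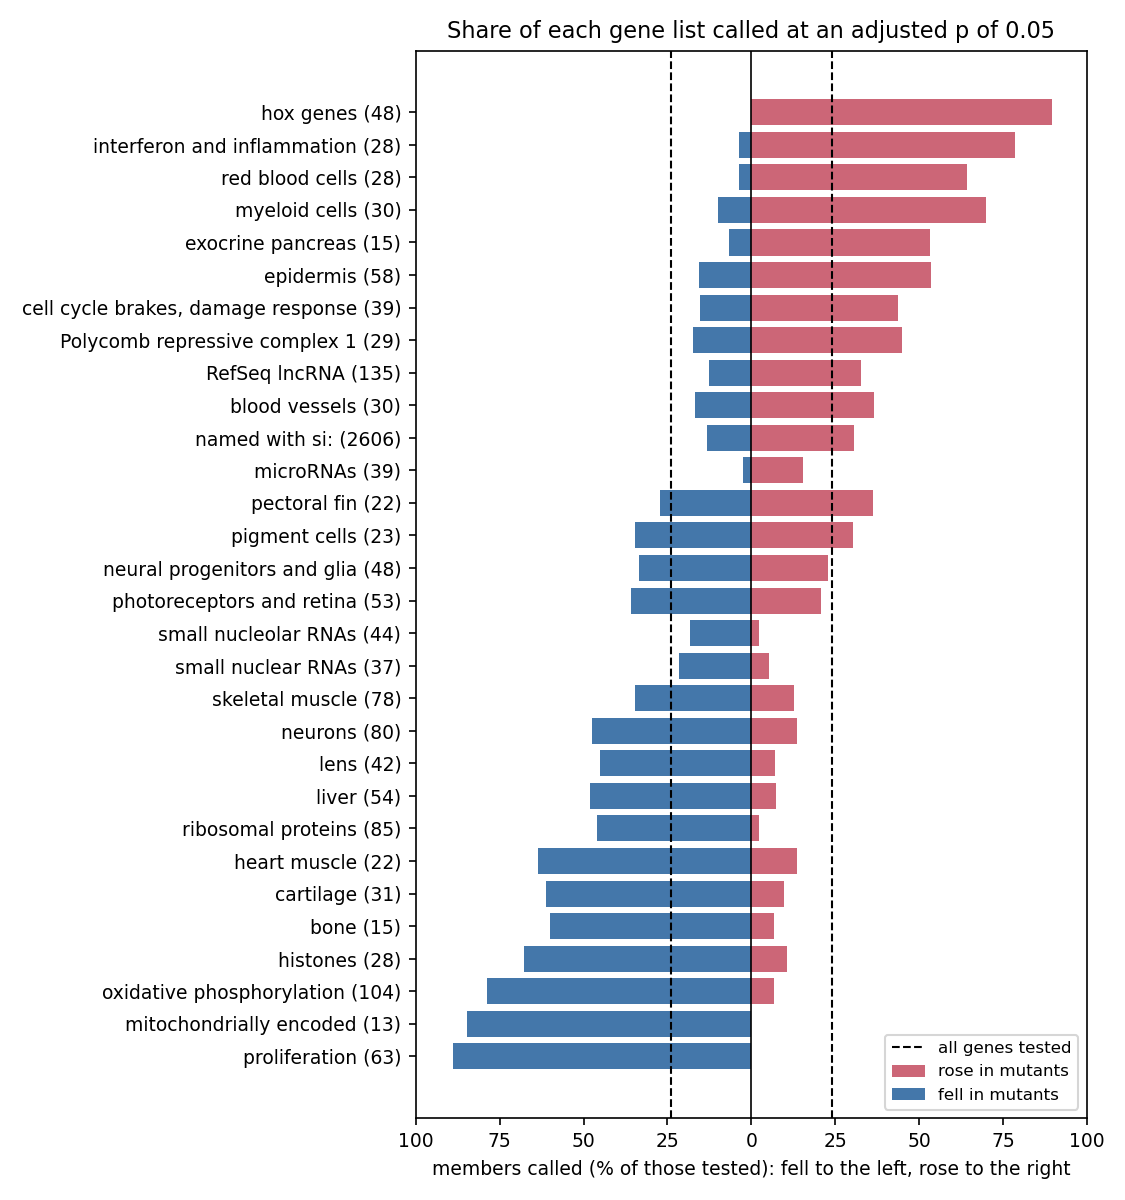
Percentage of the members of each gene list that rose (right) or fell (left) in *rnf2* mutants by limma at an adjusted p of 0.05, with the number of members tested in parentheses and dashed lines at the 24% and 23.8% of all 22685 genes. The bars run from proliferation, with 56 of 63 members down and 0 up, to *hox* genes, with 43 of 48 up and 0 down.

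The liver at 3 dpf has begun to make plasma proteins and to take over metabolic work from the yolk. Of 54 liver genes tested 26 fell and 4 rose, with a median log2 fold change of -0.27, and 3 passed the 2-fold test, all downwards. The gene *agxtb*, which encodes an enzyme that detoxifies glyoxylate, was at 164, 221 and 319 normalized counts in wildtypes and at 46.3, 56.9 and 89.3 in mutants. No mutant library reached the lowest wildtype library (log2 fold change -1.98 ± 0.15), and the gene lies near *rnf2* on chromosome 2. The vitamin D-binding protein gene *gc* was at 46.7, 64.9 and 87.7 in wildtypes and at 13.6, 26.1 and 27.9 in mutants, again without overlap (-1.61 ± 0.18). The liver fatty acid-binding protein gene *fabp10a* had the widest spread of the 3, from 34.3 to 136 in mutants against 208 to 430 in wildtypes (-1.83 ± 0.22).

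Not all liver genes moved this way. Urate oxidase (*uox*) fell by 1.56 ± 0.20 and *cps1*, which begins the urea cycle, by 1.67 ± 0.29 on the log2 scale, and only for *cps1* did the groups overlap. The serum iron carrier *tfa*, the most abundant of these genes, went from 8154, 10177 and 11469 to 5684, 8254 and 8802, a fall of 0.37 ± 0.10 with overlapping groups. Ceruloplasmin (*cp*) did not pass the test (810, 975 and 1502 against 912, 1146 and 1608). The heme scavenger *hpxa* rose from 2.5, 5.86 and 13.6 to 12.7, 19.5 and 44.5 with an overlap of the groups, and the cytochrome *cyp2p6* rose by 0.88 ± 0.17. The liver list as a whole took 0.504% of all counts in wildtypes and 0.437% in mutants.

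Genes of lipoproteins, which the yolk syncytial layer and the liver both make, fell in 9 of 18 cases and rose in 1. The largest fall was that of *apoc1*, a small apolipoprotein also abundant in macrophages, from 4321, 5313 and 7573 to 1627, 2015 and 3565 (-1.39 ± 0.14). Its groups did not overlap, and the highest mutant value was that of mutant replicate 2. *apoa2* stood at 20861, 26914 and 35665 in wildtypes and 22250, 23161 and 30976 in mutants and did not pass the test. *apobb.2*, which encodes the large structural protein of yolk lipoproteins, was the exception that rose (449, 475 and 689 against 453, 828 and 1550, 0.66 ± 0.18), and its groups overlapped.

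Genes of the gut and the exocrine pancreas moved in both directions. Intestinal genes rose in 3 and fell in 5 of 17 cases. Of 15 genes of digestive enzymes and their regulators 8 rose and 1 fell, with a median of 0.61. The 1 that fell was the chymotrypsinogen gene *ctrb.1*, at 27.5, 31.9 and 75.2 in wildtypes and at 2.44, 3.95 and 9.16 in mutants (-2.67 ± 0.28), which passed the 2-fold test. All mutant libraries were under the lowest wildtype one. The elastase gene *ela2l* moved the other way, from 0, 4.5 and 8.98 to 11.4, 16.6 and 33.2 (2.07 ± 0.39), also without overlap. Trypsinogen (*try*) did not pass the test, with 82.3, 121 and 205 against 101, 114 and 160. Leaving out wildtype replicates 1 to 5 brought *try* past the threshold downwards (-0.43).

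Cartilage held some of the steepest falls of named genes. Of 31 genes tested 19 fell, 3 rose and 6 passed the 2-fold test, all downwards, with a median of -0.63. Matrilin 1 (*matn1*), a protein that links fibres of the cartilage matrix, stood at 3300, 3838 and 4267 in wildtypes and at 119, 163 and 267 in mutants (-4.47 ± 0.12). The groups were far apart. The aggrecan gene *acana*, the main proteoglycan of cartilage, went from 528, 722 and 887 to 108, 136 and 254 (-2.29 ± 0.15), and *snorc*, a proteoglycan of chondrocytes, from 117, 123 and 167 to 16.3, 21.9 and 26.9 (-2.54 ± 0.13). In both genes every mutant library was below every wildtype library.

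The collagens of cartilage fell less. *col2a1a*, which encodes the main fibrillar collagen and is also used by the notochord, was at 10112, 17055 and 19999 in wildtypes and 5134, 5781 and 10112 in mutants (-1.17 ± 0.16), where the groups met at their edges. *col9a1a* fell by 1.26 ± 0.09 without overlap. Among regulators, the pharyngeal arch factor *barx1* fell from 124, 167 and 217 to 64.1, 68.6 and 76.6 (-1.23 ± 0.11). The regulators *trps1*, which represses the maturation of chondrocytes, and *nkx3.2*, which marks the jaw joint, were 2 of the 3 members that rose, by 0.46 ± 0.09 and 0.68 ± 0.14.

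Bone was covered by fewer genes. Of 15 bone genes 9 fell and 1 rose. *col10a1a*, a collagen of early osteoblasts and hypertrophic chondrocytes, stood at 2151, 2363 and 2577 in wildtypes and at 148, 259 and 366 in mutants (-3.35 ± 0.15). The osteoblast gene *ifitm5* was at 29.4, 55.1 and 66.3 against 3.49, 7.34 and 13.7 (-2.73 ± 0.26). Neither gene had a mutant library within the wildtype range. *sparc*, a matrix protein of many connective tissues, fell by 0.52 ± 0.06, and cathepsin K (*ctsk*), a protease of bone resorption, was the member that rose (208, 237 and 301 against 329, 387 and 499, 0.67 ± 0.10).

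Genes of mineralized tooth matrix were not on a list fixed for bone, but were among the 15 largest falls without overlap. Enamelin (*enam*) went from 170, 270 and 305 to 5.53, 11.4 and 42.4 (-4.16 ± 0.29), and *scpp5*, a secretory phosphoprotein of the same family of teeth and scales, from 25.1, 58.7 and 77 to 1.16, 3.65 and 9.16 (-3.64 ± 0.32). Of 22 pectoral fin genes 8 rose and 6 fell. The actinodins *and1* and *and2*, which build the fibres of the fin fold, fell by 0.56 ± 0.18 and 0.80 ± 0.16 with overlapping groups. The posterior *hox* genes used in the fin were among the members that rose, *hoxd13a* by 1.49 ± 0.28 and *hoxd12a* by 0.79 ± 0.12.

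**Figure D3:**
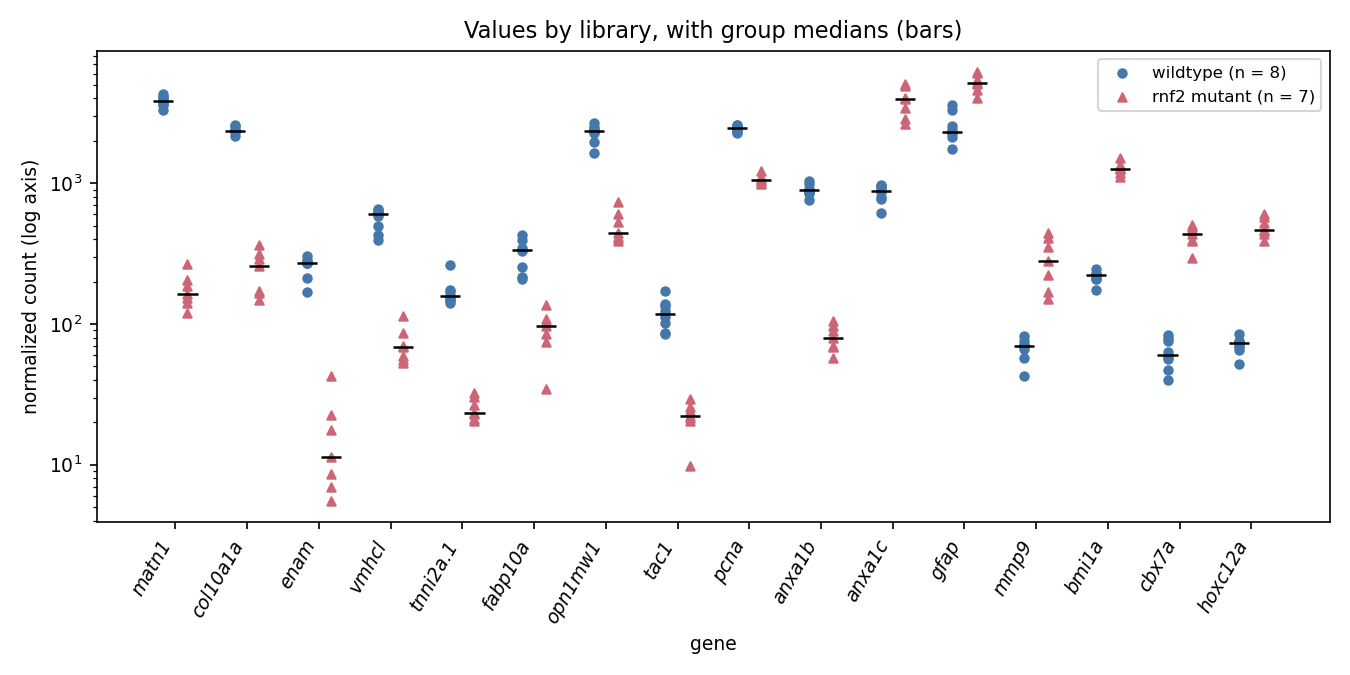
Normalized counts (vertical log axis) of 16 genes named in the text in each of 8 wildtype libraries (circles) and 7 *rnf2* mutant libraries (triangles), with a bar at the median of each group. The groups do not overlap in any of the 16 genes, from *matn1*, with medians of 3838 and 163, to *hoxc12a*, with medians of 72.7 and 465.

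Heart muscle fell as a list and skeletal muscle only in part. Of 22 heart muscle genes 14 fell, 3 rose and 5 passed the 2-fold test downwards, with a median of -0.62. The ventricular myosin gene *vmhcl* was at 394, 602 and 660 in wildtypes and at 53, 68.2 and 113 in mutants (-2.95 ± 0.15), and it too lies near *rnf2*. The natriuretic peptide gene *nppa*, a marker of working chamber muscle, was at 70.4, 122 and 151 against 11, 18.8 and 33.2 (-2.47 ± 0.23). Both were free of overlap. Of the other myosins, *myl7* (light chain of the whole heart) fell by 1.33 ± 0.12, *myh6* (atrium) by 0.81 ± 0.13 and *vmhc* (ventricle) by 0.70 ± 0.10, each without overlap of the groups. The cardiac transcription factor *gata6* was 1 of the 3 members that rose (110, 134 and 208 against 144, 193 and 332, 0.57 ± 0.16), and its groups overlapped.

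Of 78 skeletal muscle genes 27 fell and 10 rose, with a median of -0.11, and by library totals 18 fell and 15 rose. The summed counts of the list overlapped, from 782000 to 960100 in wildtypes and from 775200 to 946800 in mutants. Beneath this, members of families of near-identical genes went opposite ways. The fast myosin gene *myhz1.3* rose from 11958, 13341 and 16372 to 18641, 22337 and 24099 (0.70 ± 0.08) without overlap. Its neighbour *myhz1.2* fell from 24686, 35348 and 37388 to 17296, 19740 and 26094 (-0.71 ± 0.11), where the groups overlapped at their edges. *myhz2* rose by 0.45 ± 0.08. These genes share long stretches of sequence. The study counted reads with STAR's GeneCounts mode, and how reads that match several of these genes affected the counts was not tested. Each value is therefore uncertain on its own.

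The falls past the 2-fold test in skeletal muscle were in less abundant genes. The troponin I genes *tnni2a.1* (141, 159 and 261 against 20.6, 23.1 and 32.4, -2.69 ± 0.14) and *tnni2b.2* (1399, 1655 and 1846 against 411, 574 and 785, -1.50 ± 0.10) fell without overlap. A further myosin heavy chain, *myhb*, fell from 2231, 2557 and 2866 to 378, 526 and 650 (-2.24 ± 0.09). Mutants were again all below wildtypes. The calcium pump gene *atp2a1* of fast fibres, at 24891, 27865 and 36593 in wildtypes, rose by 0.42 ± 0.11 with overlapping groups. Of 19 regulators of muscle formation 4 rose and 3 fell, and *lbx1a*, which marks migrating muscle precursors and dorsal spinal neurons, passed the 2-fold test upwards (26.6, 53.5 and 64.9 against 148, 196 and 267).

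The epidermis was the organ list with the largest increase in counts. Of 58 genes 31 rose and 9 fell, with a median of 0.21 (18 rose with wildtype replicates 11 to 13 alone), and the summed counts of the list were 179500, 209300 and 219900 in wildtypes against 241400, 255500 and 272000 in mutants. The most abundant keratin, *krt4* of the outer layer, went from 78415, 87924 and 99792 to 103600, 123600 and 133960 (0.47 ± 0.11), the largest absolute rise of any gene tested. The groups did not overlap. *krt91* rose from 2577, 3695 and 5049 to 7514, 8204 and 9021 (1.21 ± 0.11) and the calcium-binding protein gene *icn2* from 1197, 1417 and 1876 to 2900, 3151 and 3537 (1.17 ± 0.08), also without overlap.

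Single members of the epidermis list moved steeply and in opposite directions. The annexin gene *anxa1c* passed the 2-fold test upwards, from 614, 883 and 964 to 2651, 3986 and 5074 (2.15 ± 0.13). Its relative *anxa1b* passed it downwards, from 754, 888 and 1044 to 57.1, 79.1 and 105 (-3.48 ± 0.11). In each the groups were wide apart. Both belong to 1 family, and how reads that match both affected the counts was not tested. The gelsolin relative *scinla* fell by 1.71 ± 0.10 and the basal keratin *krt17* by 1.02 ± 0.11, both without overlap. The basal keratin *krt5*, at 2481, 5295 and 7546 against 3881, 6064 and 7239, did not pass the test in all libraries and did so upwards (0.55) with wildtype replicates 1 to 5 alone. Ionocyte and mucous cell genes rose in 6 and fell in 5 of 20 cases. The carbonic anhydrase gene *ca2* fell by 1.07 ± 0.08 and the sodium-proton exchanger gene *slc9a3.2* rose by 1.48 ± 0.34.

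Genes of neurons fell more often than they rose, 38 against 11 of 80, with a median of -0.23. The steepest falls were in neuropeptides. Neuropeptide Y (*npy*) was at 15, 28.2 and 51.1 in wildtypes and at 0, 0.816 and 3.77 in mutants (-3.98 ± 0.37). The tachykinin gene *tac1* was at 85.2, 118 and 172 against 9.79, 22.1 and 29.1 (-2.42 ± 0.19). All mutant libraries lay below all wildtype ones in each. Outside the list, the hypothalamic peptide gene *pmchl* (15.8, 20 and 27.3 against 0, 0.79 and 2.45, -3.75 ± 0.32) and the habenular receptor gene *gpr151* (23.3, 37.7 and 55 against 0, 1.27 and 4.58, -4.09 ± 0.30) were among the 15 largest falls.

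Some genes used across neurons rose. The RNA-binding protein gene *elavl3*, a marker of young neurons, rose by 0.43 ± 0.10 (581, 773 and 951 against 755, 1016 and 1196), and the groups overlapped. The cell adhesion gene *cntn2* rose from 290, 367 and 416 to 551, 700 and 899 (0.97 ± 0.09) without overlap, and *nrxn3a*, a presynaptic adhesion gene, by 0.90 ± 0.18. The synaptic vesicle fusion gene *snap25a* stood at 1693, 1969 and 2326 against 1612, 1969 and 2151 and did not pass the test.

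Of 48 genes of neural progenitors and glia 16 fell and 11 rose, and this order turned to 8 and 13 by library totals. The radial glia filament gene *gfap* rose from 1762, 2321 and 3619 to 4060, 5148 and 6144 (1.06 ± 0.13). The ventral neural tube factor *nkx2.2a* passed the 2-fold test upwards (56.2, 73.4 and 103 against 240, 324 and 356, 2.04 ± 0.14). In both the lowest mutant library was above the highest wildtype one. The dorsal and eye field factors *pax6a* and *pax6b* fell by 0.68 ± 0.11 and 0.71 ± 0.10, and *mbpa*, which encodes a protein of myelin, fell by 0.98 ± 0.13, all without overlap.

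In the eye, 19 of 53 photoreceptor and retina genes fell and 11 rose, again near balance by library totals (14 and 12), and 12 fell with mutant replicates 5 to 8 alone. The green cone opsin *opn1mw1* fell from 1628, 2339 and 2668 to 388, 440 and 739 (-2.20 ± 0.13). Its tandem relative *opn1mw2* rose from 21.5, 31.2 and 35.8 to 69.4, 88.5 and 123 (1.57 ± 0.14). Both passed the 2-fold test with no overlap, and both share sequence with further opsins of the array. The homeobox gene *six7*, which zebrafish use for green cone opsins, fell from 238, 300 and 369 to 98.6, 124 and 127 (-1.37 ± 0.09). The ultraviolet opsin *opn1sw1* fell by 0.73 ± 0.12 with overlapping groups.

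Genes of the lens, which are crystallins, other lens proteins and regulators, fell in 19 of 42 cases and rose in 3, with a median of -0.45. Their spread between libraries was wide, with *cryba4* at 1732, 2408 and 4858 against 575, 898 and 1307 (-1.51 ± 0.22) and *crybb1* at 321, 641 and 1072 against 37.1, 297 and 435 (-1.60 ± 0.40). Only for *cryba4* were the groups apart. The lens count rested on the choice of wildtype libraries, with 30 members down against wildtype replicates 1 to 5 and 5 against replicates 11 to 13. Pigment cell genes rose in 7 and fell in 8 of 23 cases. The yellow pigment enzyme gene *gch2* fell from 1810, 1979 and 2141 to 658, 851 and 1017 (-1.24 ± 0.08), without overlap.

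Blood genes rose. Of 28 red blood cell genes 18 rose and 1 fell, with a median of 0.87, and the summed counts went from 7406, 11930 and 16000 to 17410, 19050 and 25780. The embryonic globin *hbae3* was at 2246, 4744 and 7216 against 7223, 7761 and 12798 (0.99 ± 0.21), which left the groups barely apart. The highest mutant value was that of replicate 2. A further globin, listed as *HBE1*, passed the 2-fold test from 0, 0.372 and 4.49 to 20.7, 39.4 and 55.9 (4.42 ± 0.39). The blood and vessel factor *tal1* passed it as well (113, 134 and 180 against 347, 375 and 481), and *klf1*, which drives globin genes, rose from 3.49, 11.7 and 21.8 to 15.8, 39.2 and 52.7 (1.74 ± 0.33). The transferrin receptor gene *tfr1a* was the member that fell (-0.39 ± 0.10).

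Genes of myeloid cells rose in 21 of 30 cases and fell in 3, with a median of 0.62. The matrix protease gene *mmp9* of neutrophils passed the 2-fold test, from 42.6, 70.1 and 82.3 to 150, 280 and 445 (2.01 ± 0.20), with no overlap. The cytokine gene *il1b* rose from 3.79, 9.12 and 23 to 20.4, 41.2 and 81.4 (2.01 ± 0.32), where the groups overlapped. The lysozyme gene *lyz* rose by 1.05 ± 0.17 and the neutrophil peroxidase gene *mpx* by 0.51 ± 0.13, while *cebpb*, a factor of myeloid cells and of inflammation, rose from 247, 291 and 398 to 443, 768 and 957 (1.31 ± 0.14). The summed counts of this list were nonetheless lower in mutants (6058 to 9653 against 4824 to 6787), and its most abundant member, *apoc1*, fell.

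Of 28 genes of interferon response and inflammation 22 rose and 1 fell, with a median of 0.86, and none passed the 2-fold test. The RNA sensors *ifih1* (0, 10.7 and 19.1 against 19.5, 24.1 and 55, 1.58 ± 0.47) and *dhx58* (7.9, 13.7 and 15 against 24.1, 31.7 and 49.8, 1.40 ± 0.20) rose without overlap. *ifit14* was the member that fell (3.5, 13 and 20.9 against 1.14, 6.09 and 9.48, -1.05 ± 0.36). Many of these genes have few reads, and with mutant replicates 1 to 3 alone 12 members rose. Families of immune genes that are amplified in fish (MHC, NLR, finTRIM and GIMAP) rose in 35 and fell in 3 of 70 cases, with *nlrc5* at 3.5, 13.5 and 19.8 against 37.8, 72.2 and 116 (2.47 ± 0.31).

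Vessel genes rose in 11 and fell in 5 of 30 cases. The endothelial cadherin *cdh5* rose by 0.49 ± 0.08, and the aquaporin gene *aqp8a.1* passed the 2-fold test downwards (63.2, 82.9 and 132 against 10.5, 17.4 and 35.1, -2.02 ± 0.24). Of 22 kidney genes 9 rose and 4 fell, of 21 genes of the inner ear and lateral line 6 rose and 6 fell, and of 11 hatching gland genes 4 rose and 1 fell. The hatching enzyme gene *he1a* passed the 2-fold test upwards, from 9.15, 17.7 and 43.8 to 50.5, 74.4 and 188 (2.11 ± 0.32), without overlap.

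Genes used by all dividing cells fell together. Of 63 proliferation genes 56 fell and 0 rose, with a median of -0.78, and in 47 of them no mutant library reached the wildtype range. The replication clamp gene *pcna* was at 2290, 2462 and 2600 in wildtypes and at 992, 1057 and 1212 in mutants (-1.20 ± 0.06). The ribonucleotide reductase gene *rrm1* was at 741, 790 and 905 against 239, 270 and 353 (-1.50 ± 0.08), and the mitotic cyclin gene *ccnb1* at 528, 570 and 633 against 187, 215 and 255 (-1.41 ± 0.07). All 3 passed the 2-fold test and had narrow, separate groups. The marker of cycling cells *mki67* fell by 1.16 ± 0.10. The summed counts of the list were 38460, 42940 and 45730 in wildtypes and 21780, 24810 and 25240 in mutants.

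Histone genes fell in 19 of 28 cases and rose in 3. The H2A genes *hist1h2a2* (240, 272 and 341 against 46.6, 75.6 and 140, -1.86 ± 0.15) and *hist1h2a3* (308, 369 and 473 against 97.8, 116 and 145, -1.69 ± 0.10) passed the 2-fold test, and their groups were apart. Copies of histone genes are near-identical, so the values of single copies are uncertain. The linker histone gene *histh1l* rose from 2005, 2360 and 2896 to 4476, 5242 and 5640 (1.12 ± 0.08) without overlap.

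Among cell cycle brakes and genes of the DNA damage response, 17 of 39 genes rose and 6 fell. *sesn1*, a stress-induced inhibitor of growth signalling, passed the 2-fold test from 539, 614 and 702 to 1278, 1465 and 1800 (1.24 ± 0.07). The cell cycle inhibitor *cdkn2a/b*, a locus known as a Polycomb target in mammals, passed it from 1.49, 2.91 and 5.61 to 9.16, 14.2 and 21 (1.97 ± 0.30). Neither had overlapping groups. The cell cycle inhibitor gene *cdkn1a* fell by 0.64 ± 0.20 (59.7, 88 and 136 against 37.3, 50.8 and 90.5).

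Genes of energy metabolism fell slightly but in large numbers. Of 104 nuclear genes of oxidative phosphorylation 82 fell and 7 rose, with a median of -0.44 and none past the 2-fold test. *cox6b1* went from 263, 343 and 428 to 144, 173 and 228 (-0.92 ± 0.11) and the cytochrome c gene *cycsb* from 2099, 2692 and 2928 to 1275, 1373 and 1545 (-0.92 ± 0.07), without overlap. The subunits *cox7a1* and *cox4i2* rose, by 1.52 ± 0.20 and 0.87 ± 0.09. Of 13 genes of the mitochondrial genome 11 fell and 0 rose, with a median of -0.65 and groups that overlapped in all but 1, such as *mt-co1* at 23004, 29700 and 33268 against 12480, 20234 and 28543 (-0.49 ± 0.13).

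Ribosomal protein genes fell in 39 and rose in 2 of 85 cases, by small amounts (median -0.19). Their share of falls, 45.9%, was close to the 45.5% of all genes with a mean of 500 or more. The median of those genes was -0.17, so the falls were near what abundant genes showed in general. The largest fall was that of *rpl13*, from 4795, 5647 and 7444 to 3416, 3983 and 4913 (-0.47 ± 0.10), with overlapping groups. By library totals 13 fell and 2 rose, so that this count depended on the scaling more than those of proliferation (55 down) or oxidative phosphorylation (71 down).

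The *hox* genes, which give cells their position along the body axis, were the list with the largest share of rises. Of 48 genes tested 43 rose, 0 fell and 16 passed the 2-fold test, with a median of 1.06, and the summed counts went from 4285, 4445 and 5174 to 10130, 11050 and 12290. The rises were larger towards the posterior groups. Among 17 genes of paralogue groups 1 to 5, 12 rose and 2 passed the 2-fold test (median 0.65). Of 8 genes of groups 6 to 8 all rose and 1 passed the 2-fold test (median 0.95). Of 23 genes of groups 9 to 13 all rose, 13 passed the 2-fold test and 22 had no overlap of the groups (median 1.76).

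The largest rise of the family was that of *hoxb13a*, at 10.5, 31.5 and 43.5 in wildtypes and at 269, 315 and 359 in mutants (3.50 ± 0.22). *hoxc12a* went from 51.6, 72.7 and 84.3 to 390, 465 and 608 (2.78 ± 0.11) and *hoxa9b* from 87.5, 108 and 135 to 600, 693 and 857 (2.65 ± 0.10). In these 3 genes the lowest mutant library was well above the highest wildtype one. Of the anterior genes, *hoxd3a* and *hoxd4a* were those past the 2-fold test (2.22 ± 0.12 and 1.69 ± 0.16). Those that did not pass any test included *hoxb1a*, *hoxb5a* and *hoxb5b* and the gene listed as *HOXA5*.

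**Figure D4:**
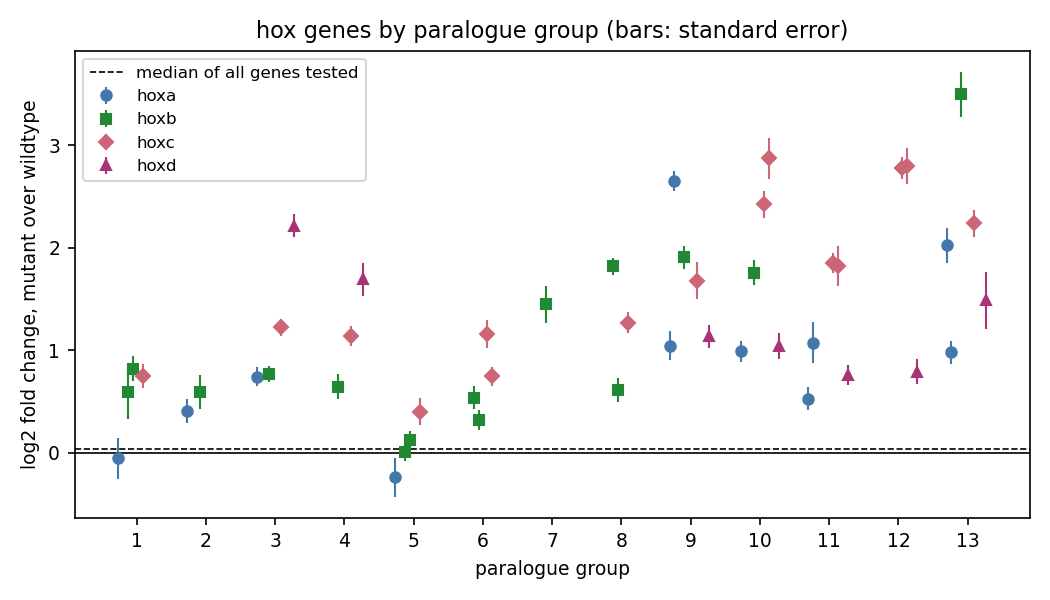
Log2 fold change of mutants over wildtypes, with its standard error as a bar, for 48 *hox* genes against paralogue group 1 (anterior) to 13 (posterior), with marker shapes for the hoxa, hoxb, hoxc and hoxd clusters. The 23 genes of groups 9 to 13 have a median of 1.76, against 0.65 for the 17 genes of groups 1 to 5, and lie above 0 throughout.

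Other families of developmental regulators moved less as a whole. T-box genes rose in 11 and fell in 3 of 23 cases, with the hindlimb gene *tbx4* at 20.8, 27.3 and 43.5 against 57.7, 80.4 and 87 (1.35 ± 0.16) and no overlap. Of 171 other homeobox genes 69 rose and 34 fell (median 0.17), and 5 passed the 2-fold test. The sharpest were the ventral neural gene *nkx2.2b* (13.5, 16.1 and 23.8 against 60.7, 78 and 119, 2.17 ± 0.17) and, downwards, *irx4a* (28.3, 40.8 and 52.4 against 3.95, 9.32 and 15.2, -2.13 ± 0.24). The short stature gene *shox* fell by 0.73 ± 0.12. Of 148 sox, fox, gata and basic helix-loop-helix genes 47 rose and 31 fell. *gata3*, the ciliogenesis gene *foxj1a* and the segmentation clock gene *her7* passed the 2-fold test upwards (1.38 ± 0.11, 1.61 ± 0.12 and 2.42 ± 0.38), each without overlap.

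Among the Polycomb genes themselves, 13 of 29 PRC1 genes rose and 5 fell, *rnf2* included. *bmi1a*, a partner of Rnf2 in the catalytic core, went from 175, 221 and 247 to 1112, 1265 and 1512 (2.56 ± 0.08). The chromodomain subunit *cbx7a* (39.8, 60.5 and 83.8 against 293, 437 and 508, 2.75 ± 0.15) also passed the 2-fold test. In both the groups were far apart. Of 12 PRC2 genes 6 fell and 3 rose. The methyltransferase gene *ezh2* fell from 666, 699 and 754 to 454, 482 and 486 (-0.55 ± 0.05), while its paralogue *ezh1*, which is known from mammals as the form of non-dividing cells, rose from 51.1, 63.6 and 70.7 to 82.8, 139 and 165 (1.06 ± 0.13). The histone-binding subunit *rbbp4*, shared with other complexes, fell by 0.98 ± 0.06.

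The study grouped promoters bound by Rnf2 or marked by H3K27me3 into 5 clusters, and their gene names were matched to these libraries. Those lists come from the same series, although not from these RNA libraries. Cluster 3, described as holding broad domains with both marks, had 61 of 92 members up, 5 down and 23 past the 2-fold test upwards, with a median of 0.73. Of these members 31 are *hox* genes, and without them 30 of 61 rose, 5 fell and 9 passed the 2-fold test (median 0.32). In clusters 1, 2, 4 and 5 the members that rose made up 33.6%, 31.5%, 27% and 33.8%, against 24% of all genes, and those that fell 22.9%, 19.9%, 21.6% and 23.2%, against 23.8%. Their medians were 0.08, 0.14, 0.08 and 0.07, against 0.03 over all genes tested. By the study's own gene set enrichment on whole embryos, cluster 3 was enriched for upregulated genes. It reported no significant enrichment for clusters 1, 2, 4 and 5.

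Total RNA was sequenced after removal of ribosomal RNA, so that non-coding RNAs were measured, though small ones are caught unevenly by such libraries. Wildtype replicate 11 held 72063 normalized counts of small nuclear RNAs where the other 7 wildtypes held 10354 to 21645, and 227840 of small nucleolar RNAs where they held 62505 to 90164. Of 37 small nuclear RNAs 2 rose and 8 fell (21.6%), and of 44 small nucleolar RNAs 1 rose and 8 fell (18.2%). Both shares of falls were under the 23.8% of all genes tested. Without wildtype replicates 1 and 11 and mutant replicate 2, 17 small nucleolar RNAs fell, and over single libraries left out the count went from 5 to 16. The fall of *SNORD15B* (1157, 1595 and 6747 against 390, 641 and 970, -1.58 ± 0.28) had no overlap, and that of *SNORA68* (1136, 1475 and 5938 against 525, 816 and 1333, -1.08 ± 0.28) did.

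Copies of the same small RNA went opposite ways. One U2 gene (ENSDARG00000080300) passed the 2-fold test from 16.5, 27.6 and 108 to 2272, 2981 and 6830 (6.86 ± 0.31), while another (ENSDARG00000082321) fell from 3552, 5680 and 30724 to 3295, 3651 and 4737 (-0.82 ± 0.30). The groups of the first copy were apart and those of the second overlapped. *U12* fell by 0.83 ± 0.29 with overlapping groups. Of 2 *Metazoa_SRP* genes, 1 rose from 10.9, 28.5 and 77.3 to 213, 286 and 463 (3.14 ± 0.35) and 1 fell from 215, 597 and 883 to 31.8, 99.9 and 145 (-2.38 ± 0.32). *RNaseP_nuc*, the RNA of nuclear RNase P, rose from 239, 366 and 970 to 2938, 6247 and 8540 (3.86 ± 0.24). Such genes exist in near-identical copies, and how reads that match several copies affected the counts was not tested. The value of a single copy is therefore uncertain.

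Among 39 microRNA genes 6 rose (15.4%, under the 24% of all genes tested), 1 fell and 3 passed the 2-fold test. All 3 lie in *hox* clusters. *mir196c* went from 1.89, 5.14 and 14 to 20.6, 29.2 and 51.2 (2.38 ± 0.34), *dre-mir-10b-2* from 0, 1.78 and 4.65 to 5.71, 14.9 and 32.6 (2.43 ± 0.39) and *dre-mir-10d* from 1.44, 3.43 and 4.46 to 7.31, 20.6 and 57.1 (2.59 ± 0.35). No mutant library of any of them fell within the wildtype range, and reads of this kind of library come from the primary transcript and not from the mature microRNA. *mir181b-2* fell by 1.09 ± 0.23.

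Of 15 named long non-coding RNAs 6 rose and 2 fell. The nuclear RNA *malat1* was at 35137, 40389 and 57875 against 55275, 62528 and 70172 (0.60 ± 0.11), the second largest absolute rise of any gene, and the groups overlapped through wildtype replicate 11. *gas5*, the host of several small nucleolar RNAs, fell from 457, 486 and 909 to 358, 397 and 453 (-0.47 ± 0.12). Of 135 genes that RefSeq annotates as long non-coding 44 rose (32.6%) and 17 fell (12.6%). Over all genes tested 24% rose and 23.8% fell, and at means of 5 to 20 normalized counts 30.8% and 6.55%. Past the 2-fold test were 3 upwards and 4 downwards. Among them were *si:dkey-85k7.7* (102, 135 and 164 against 458, 572 and 841, 2.13 ± 0.12) and *si:ch73-52f24.4* (632, 702 and 764 against 168, 235 and 329, -1.63 ± 0.12), both with separate groups.

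Genes known by a systematic name were counted by the kind of name. Of 2606 genes named with the prefix si:, out of 22685 tested, 796 rose (30.5%) and 348 fell (13.35%). Over all genes tested 24% rose and 23.8% fell, and at means of 5 to 20 normalized counts 30.8% and 6.55%. The si: genes supplied 72 of the 228 rises past the 2-fold test and 27 of the 206 falls. Their share was not compared at equal level. Of 17508 genes that RefSeq annotates as protein-coding 4158 rose and 4572 fell. Genes with the prefixes zgc:, wu: or im: rose in 169 and fell in 121 of 641 cases. Of 1279 identifiers without a name 287 rose and 241 fell, and 20 passed the 2-fold test upwards and 29 downwards. Genes named after a clone accession rose in 79 and fell in 31 of 279 cases. Of all 2842 tested identifiers whose names hold a genomic clone, si: genes included, 106 passed the 2-fold test. It was passed by 434 of all 22685 genes tested (1.91%). Of the 106, 16 lay on 6 clones that held at least 2 of them. These are counts of identifiers, and on some of the clones 2 identifiers shared 1 name. On 5 of these clones all called identifiers went 1 way, such as the 3 of clone CR788316 that fell. Several clones held only 2, and a pair can share its direction by chance. Whether called genes gather on clones was not tested. As elsewhere, strain and genotype cannot be told apart for these genes.

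The list of genes of the glucocorticoid response included a pair of extreme falls. It holds genes that glucocorticoids are known to switch on, and also hormone receptors and genes of steroid synthesis and its control. Of 31 genes of this mixed list 6 rose and 10 fell, so the count does not describe induced genes alone. The chaperone gene *fkbp5* stood at 515, 728 and 927 in wildtypes and at 16.3, 26.1 and 56.1 in mutants (-4.63 ± 0.19), and the transcription factor *klf9* at 92.8, 173 and 247 against 8.15, 20.4 and 38.3 (-2.98 ± 0.28). Both groups were wide apart. The gluconeogenic gene *g6pca.2* fell by 1.33 ± 0.13 and the clock gene *per1a* by 0.83 ± 0.13, whereas *cebpb* rose, as given with the myeloid genes. The list as a whole had a median of -0.11 that became 0.00 by library totals.

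Further extremes belonged to no list. The olfactomedins *olfm4.1* and *olfm4.2*, whose relatives in mammals are made by gut crypts and neutrophils, rose from 0, 4.56 and 11.6 to 58.5, 101 and 151 (4.41 ± 0.40) and from 5.44, 7.76 and 10.4 to 149, 246 and 381 (4.92 ± 0.19). The oxidase gene *duox* rose from 60.6, 86.9 and 142 to 187, 256 and 470 (1.72 ± 0.20). The large GTPase gene *gvin1l2* fell from 595, 879 and 1199 to 44.3, 85.9 and 104 (-3.57 ± 0.19). Groups did not overlap in any of the 4. By absolute size the largest falls were in *myhz1.2*, *col2a1a* and *mt-co1*, and further in the neuronal tubulin gene *tubb2b* (6610, 7622 and 8772 against 3193, 3449 and 5039, -1.07 ± 0.09) and the calmodulin gene *calm3b* (8732, 9466 and 10436 against 5142, 5609 and 5981, -0.79 ± 0.06).

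Genes that neighbour *rnf2* in the RefSeq gene order of chromosome 2 were counted on their own, since they are inherited together with the mutant allele. Among the nearest 25 tested genes on each side 10 rose and 16 fell (52%, against 49.7% of 17718 genes with a place). Among the nearest 100 on each side 41 rose and 58 fell (49.5%). The 2-fold test was passed by 2 of the 50 nearest genes (4%, against 1.58% of genes with a place). These were *agxtb* and *vmhcl*, which are named above for liver and heart and both fell. No further gene among the 200 nearest passed it (1%). A difference in strain near *rnf2* and an effect of the mutation on these 2 genes cannot be told apart in these libraries.

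Single hearts of 3 dpf offered a comparison on other samples, 10 wildtype and 9 mutant hearts, all labelled TU/TLF mixed and taken from a heterozygous cross with genotyped embryos. Wildtype hearts gave 27309, 39780 and 82308 molecules (unique molecular identifiers, UMIs) and mutant hearts 49841, 64280 and 93653, so that depth differed between the genotypes. The study limited its heart comparison to genes expressed in a minimum share of the hearts of a stage. A gene silent in wildtype hearts could thus be measured only where mutant hearts expressed it, and the reverse. Of 10960 genes tested in embryos and also measured in hearts, 324 rose (2.96%) and 266 fell (2.43%) in mutant hearts at an adjusted p under 0.01 by limma. Of 2140 genes that had risen in embryos 72.1% were higher in mutant hearts, against 57% of all genes, and 157 rose there while 14 fell. Of 3551 genes that had fallen in embryos 58% were lower, and 190 fell while 47 rose.

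The same lists were read in the hearts. All 59 measured proliferation genes were lower in mutant hearts and 30 fell, with *pcna* at 36.2, 53 and 66 in wildtype hearts and 5.52, 10.8 and 18.6 in mutant hearts, which did not overlap. Of 48 *hox* genes tested in embryos 23 were measured in hearts. All 23 were higher, against 57% of all genes, and 5 rose, namely *hoxb6a*, *hoxb7a*, *hoxb8a*, *hoxd9a* and *hoxd11a*. A *hox* gene silent in wildtype hearts could enter only by being higher in mutant hearts. The shared direction is therefore not independent evidence. Of 13 mitochondrially encoded genes 12 were lower and 9 fell. Abundant ones had nearly equal values, as *mt-co1* (162.3, 336.9 and 483.9 against 142.1, 208.4 and 266.5) and *mt-nd4* (162.9, 330.4 and 455.4 against 142.1, 203.5 and 247.5). The heart primers carried a short random barcode, which bounds the molecules counted per gene, and mutant hearts held more molecules by the median. Whether this bound set the falls of such abundant genes was not tested. Oxidative phosphorylation genes were higher in 67 of 100 cases in hearts, with 0 up and 3 down. Ribosomal protein genes were higher in 76 of 84 cases, with 5 up and 0 down. Over all genes measured in both, 57% were higher, 2.96% rose and 2.43% fell. Whether a list differed between hearts and embryos was not tested, since the data are on different scales.

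Heart muscle genes fell in 8 and rose in 1 of 21 cases in hearts. Several steep falls of embryos were not seen in hearts: *tnnc1a* (-1.75 in embryos), *cmlc1* (-1.54) and *myl7* (-1.33) stood at -0.11, -0.08 and -0.04 in hearts. These genes did not pass the test there. The 2 measures differ, since the study normalized heart counts to avoid differences from unequal amounts of heart tissue. An embryo value also reflects how much heart tissue the embryo holds. Whether the bound on molecules per gene reached these genes was not tested. The member that rose in hearts was *tnnt2a* (0.42, against -0.55 in embryos). *vmhcl* was at 151, 197 and 258 in wildtype hearts against 18.6, 31.4 and 68.9 in mutant hearts, and *nppa* at 75.6, 138 and 204 against 57.0, 83.9 and 109. Only the first was without overlap. Of the Polycomb genes, *bmi1a* rose in hearts from 0.692, 2.16 and 5.28 to 11.4, 14.7 and 29.4 normalized UMIs and *cbx7a* from 0, 0.653 and 2.77 to 0.919, 8.36 and 29.8, the first without overlap. *sesn1* rose from 10.7, 16.7 and 23.2 to 41.7, 50.9 and 59.6, without overlap. *malat1*, which rose in embryos, fell in hearts, from 159, 313 and 423 to 143, 208 and 265. These values lie close to those of *mt-co1* in hearts. The limit given for the abundant mitochondrial genes therefore holds for *malat1* too, and its direction in hearts is uncertain. Of the other lists, 7 of 70 skeletal muscle genes fell and 0 rose, beside 2.43% and 2.96% of all genes. That list is not free of genes of the heart. It shares 1 gene with the heart muscle list, and its falls included *ttn.1* and *ttn.2*, which the study names among structural genes of the heart. In hearts 1 of 22 cartilage genes rose and 0 of 36 liver genes passed the test.

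**Figure D5:**
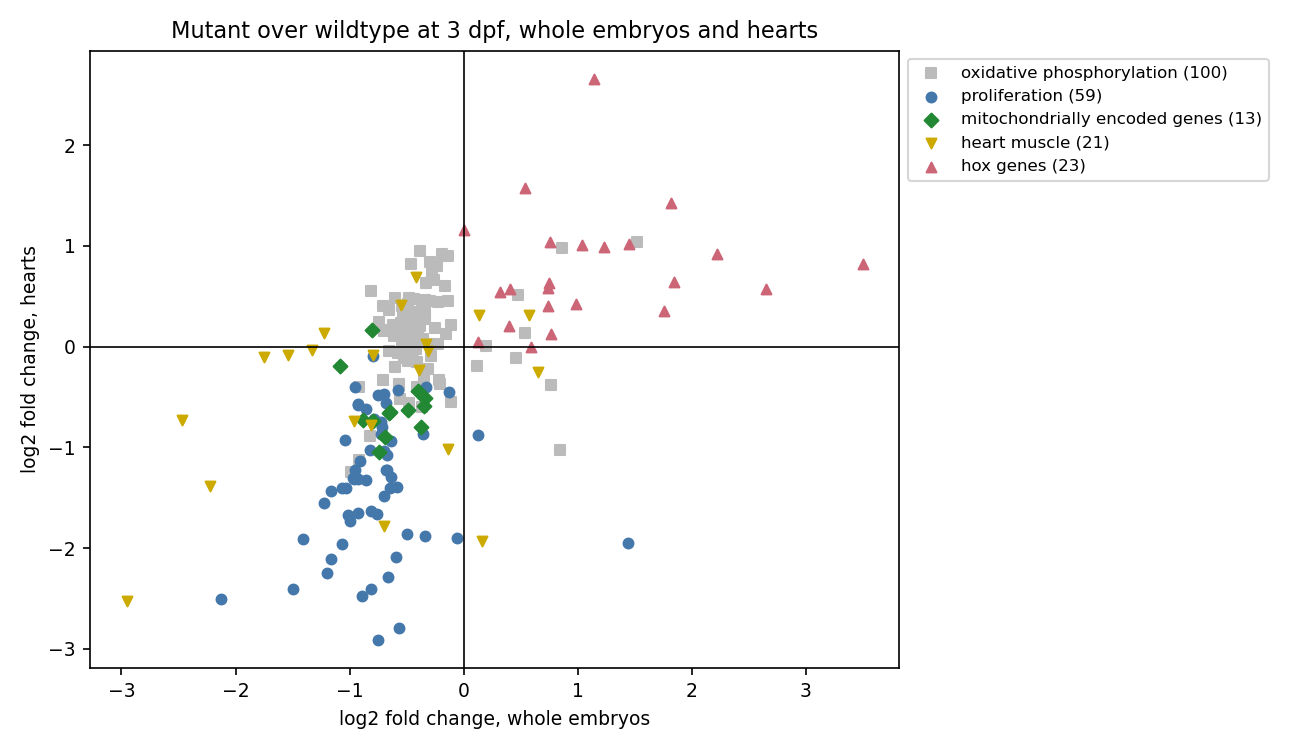
Log2 fold change of mutants over wildtypes in hearts (vertical axis) against whole embryos (horizontal axis) at 3 dpf, 1 point per gene, for genes of 5 lists with the number of genes in parentheses. The 59 proliferation genes lie below 0 in hearts and the 23 *hox* genes above it. A *hox* gene silent in wildtype hearts could be measured only through mutant hearts. Of the 100 oxidative phosphorylation genes, most of which fell in embryos, 67 lie above 0 in hearts, against 57% of all genes measured in both.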

How the data were processed

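Total RNA of pooled whole embryos was depleted of ribosomal RNA and sequenced in paired ends. The submitters' processing notes name the aligner STAR 2.5.2b, the build GRCz10 and DESeq2 1.16.1 as used by the authors. The study's methods name STAR's GeneCounts mode for the counts per gene, another DESeq2 version, and RUVSeq without its settings. Strand handling is not given in the sources used here. The deposited values are a signal. The authors divided the reads of each gene by the size factor of its library, and whole reads were recovered from all values (within 0.01 reads) in 15 of 15 libraries. Deposited heart values are likewise a signal, UMI counts divided by a size factor. Columns of the authors' own comparisons were not used.

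Log2(normalized count + 1) was fitted with limma 3.58.1 (trend, no replicate block) in R 4.3.3. The edgeR 4.0.16, DESeq2 1.42.0 and sva 3.50.0 packages served alternatives, which covered scaling, pseudocount, minimum mean, tool, subsets of replicates and each library left out. Hearts were fitted over all 11221 genes of their table. In data simulated for the embryo comparison (22016 genes) the plain test called 134 of 134 genes changed by a log2 of 2 or 3, 58 of 66 changed by 0.7 and 5 of 21816 unchanged ones. The simulation had independent libraries, the same dispersion for all genes, known size factors, 200 changed genes and no outlying library. The real libraries differ from this, so the 5 false calls give no error rate for them. Names came from the heart table, supplementary tables or reference tables (assembly GCF_049306965.1, for names and gene order only), and 3075 identifiers had none. For numbers of genes above 0, the SD and the permutation test cover the spread between these libraries only.

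Members and lists were chosen with earlier results of these data known, and lists carry no test. Named genes were *rnf2*, the 15 largest rises and falls past the 2-fold test without overlap, the 10 largest absolute rises and falls, up to 6 rises and 6 falls per list and the first 5 measured members of each organ list. Uncalled *hox* genes and those beside *rnf2* were named after their values were seen.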

Additional observations from a re-analysis of the deposited data

Results flagged for a closer look

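In 360 groups of values (genes named in the text and summed lists, in 7 or 8 libraries each) the lowest or highest library was set against the others by Dixon's ratio. Of these, 32 had a library farther out than the 95% critical value, where chance gives about 1 in 20 groups, here 18.

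Wildtype replicate 11 accounted for 13 of them, mostly non-coding RNAs. It was high in *U2* (108.1 for ENSDARG00000080300 and 30724 for ENSDARG00000082321), *U12* (7107), *SNORD15B* (6747), *SNORA68* (5938), *RNaseP_nuc* (969.8), *malat1* (57875), *gas5* (909.1), *mir181b-2* (28.28) and *tfr1a* (484.9), and in the summed small nuclear RNAs (72063) and small nucleolar RNAs (227840). It was low in *rrm2* (ENSDARG00000020711, 212.1, against 520.7 to 787.8 in the other wildtypes).

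Mutant replicate 2 accounted for 7, all high: *agxtb* (89.29), *apoc1* (3565), *acana* (254.1), *gpr151* (4.579), *hbae3* (12798), the summed red blood cell genes (25784) and the summed small nucleolar RNAs (92743). Wildtype replicate 13 was high in *ctrb.1* (75.24), *ca2* (656.3) and *mt-atp6* (2906). Mutant replicate 1 was high in *trps1* (340.1), *hist1h2a2* (140.3) and *hoxb7a* (245.5), and mutant replicate 6 was low in *elavl3* (755) and high in *tubb2b* (5039). The others were *snorc* in wildtype replicate 2 (166.7), *tnni2a.1* in wildtype replicate 3 (260.7), *il1b* in mutant replicate 5 (81.39) and *ifih1* in mutant replicate 8 (55.02). What set these libraries apart was not tested. Without wildtype replicates 1 and 11 and mutant replicate 2, which was chosen after seeing the data, 220 genes passed the 2-fold test upwards and 201 downwards.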

How the results depend on the processing

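No called value changed its direction under any alternative run, while *hoxb5a*, *snap25a*, *try*, *apoa2*, *krt5* and *cp*, which were not called, changed sign in at least 1. Of 5431 values of named genes under these, 5363 stayed on their side of the threshold, 57 lost the call and 11 gained it. The 2-fold test called 434 genes, 228 up and 206 down, and 372 to 468 with single libraries left out (195 to 235 up, 177 to 233 down), while the plain test called 10001 to 10755 in place of 10854 (4977 to 5431 up, 5024 to 5324 down). Rises past the 2-fold test numbered 150 with a pseudocount of 5 and 413 by edgeR on recovered reads (701 in both directions). With a minimum mean of 20, 18897 genes were tested in place of 22685, and 139 rose past 2-fold, all of them among the 228.

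With wildtype replicates 11 to 13 alone, 268 genes passed the 2-fold test (116 down), and 18 epidermis members rose in place of 31. With mutant replicates 1 to 3 alone, 266 passed (131 up, 135 down), and 3353 rose by the plain test. With mutant replicates 5 to 8 alone, 135 rose past 2-fold, and 12 retina members fell in place of 19. Lens members that fell numbered 30 against wildtype replicates 1 to 5 and 5 against 11 to 13, in place of 19. Interferon members that rose numbered 22, 14 with a minimum mean of 20 and 12 with mutant replicates 1 to 3. Small nucleolar RNAs that fell numbered 8 (5 to 16 with single libraries left out), 20 by edgeR, 14 by DESeq2, 5 without the trend, 3 with wildtype replicates 11 to 13, 1 with mutant replicates 1 to 3, 5 with mutant replicates 5 to 8 and 17 without wildtype replicates 1 and 11 and mutant replicate 2, an alternative added after seeing the data. Of the 26 genes called among the 50 nearest to *rnf2*, 2 passed the 2-fold test. A minimum mean of 20 left fewer genes to call, and the cause of the other changes was not tested.

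Same-numbered wildtype and mutant libraries (1, 2, 3 and 5) gave no sign of deviating together, with correlations of -0.03, -0.16, -0.06 and 0.03. Correlations over so few libraries cannot show that the numbers do not pair them. A replicate block over these 8 libraries gave 250 genes past 2-fold (139 up, 111 down), 6849 by the plain test (3097 up) and 14 interferon members up. The same 8 libraries without the block, added after seeing the data, gave 246 (138 up, 108 down), 6941 (3203 up) and 14.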
